A study of Mus musculus with 31 samples.

Results

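The 2152 regions described here are 100-bp tiles of the mouse genome that were already heavily methylated in oocytes of both primordial stages. They were chosen by measured values among the 39619 tiles that could be measured in every one of 9 stages of follicle growth, of which they make up 5.43%. A tile counted as measured in a library where at least 3 CpG sites had 5 reads or more, and as measured in a stage where that held in at least 2 libraries. The tile's level is its methylated reads as a percentage of all its reads, and the stage level is the mean of the libraries. A member had a level of at least 60% in Type1 and in Type2 and of at least 40% in Type7, so its levels in these 3 stages are a description and not a finding. The levels in Type3a, Type3b, Type4, Type5a, Type5b and Type6 were not used to choose it. Reduced representation bisulfite sequencing (RRBS) was done on 31 libraries of oocytes from B6D2F1 mice, a cross of C57BL/6 and DBA/2. RRBS cuts DNA with MspI at CCGG and reads the ends of the fragments after bisulfite treatment, so it sees mostly CpG-rich DNA. Type1 and Type2 came from primordial follicles (3 libraries each), Type3a and Type3b from primary follicles (3 each), Type4, Type5a and Type5b from secondary follicles (5, 5 and 3), and Type6 and Type7 from antral follicles (3 each). The labels give no age, no number of oocytes per library and no criterion that separates the stages within a follicle class. They also do not say whether the libraries came from different mice, so the p-values below measure the spread between libraries, which may be technical.

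As background, the mouse germline loses most of its DNA methylation before birth, and the oocyte regains methylation while it grows inside the follicle, through the methyltransferase DNMT3A and its partner DNMT3L. Some retrotransposons escape part of the earlier loss, the best known being the endogenous retroviruses of the intracisternal A particle (IAP) class. Another class, the long interspersed elements (L1), carries promoters that in the mouse consist of monomers repeated in tandem.

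Most members lay in sequence that recurs in the genome, and a few repeated patterns accounted for nearly all of them. The deposited files give the bases next to each CpG site, so 4 neighbouring sites within 80 bp, with their spacing and flanking bases, make a fingerprint that can be looked for elsewhere. Only listed sites with at least 5 reads in at least 6 libraries entered, so copies that RRBS did not read were not counted. Fingerprints found at least 50 times were joined into families where they overlapped. A total of 5 families held 1936 members (89.96%), against 28.5% of all 39619 tiles. The patterns below, shown because they are what the members share, give the bases around each CpG site found in at least 50% of a family's copies, 5′ to 3′. Capitals mark the CpG sites and n a base that the files do not give.
Family 1: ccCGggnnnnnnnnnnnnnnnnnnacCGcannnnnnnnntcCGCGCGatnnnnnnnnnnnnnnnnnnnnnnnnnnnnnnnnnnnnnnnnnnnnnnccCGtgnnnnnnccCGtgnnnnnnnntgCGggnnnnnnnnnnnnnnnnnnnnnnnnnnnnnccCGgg
Family 2: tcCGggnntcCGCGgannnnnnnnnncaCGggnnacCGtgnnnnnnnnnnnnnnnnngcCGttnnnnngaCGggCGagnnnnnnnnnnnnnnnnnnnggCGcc
Family 3: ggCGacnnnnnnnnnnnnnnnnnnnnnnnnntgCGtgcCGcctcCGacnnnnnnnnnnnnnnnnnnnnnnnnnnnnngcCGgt
Family 4: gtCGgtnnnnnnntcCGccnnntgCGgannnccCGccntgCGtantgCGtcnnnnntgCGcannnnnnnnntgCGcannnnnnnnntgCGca
Family 5: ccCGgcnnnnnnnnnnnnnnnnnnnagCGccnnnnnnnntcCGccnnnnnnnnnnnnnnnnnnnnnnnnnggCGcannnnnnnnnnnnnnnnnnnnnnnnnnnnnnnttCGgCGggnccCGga
Copies of families 1, 2 and 5 repeated in tandem, most often 208, 206 and 212 bp apart, and families 3 and 4 had no such spacing. Of the 263 copies of the family 3 fingerprint, 49 lay within 10 kb of a copy of family 4. No repeat annotation of the files' genome build (mm9) was used, so the families carry numbers and are not named.

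The flanking bases cover only part of a unit. To show whole units, the fingerprints were looked for in the 250 bases before each gene start in RefSeq (GRCm38.p6, 32851 windows, both strands). In this search N stood for any base. A match may thus hold further CpG sites and need not be a copy of the family, and the counts that follow are of such matches. The family 1 fingerprint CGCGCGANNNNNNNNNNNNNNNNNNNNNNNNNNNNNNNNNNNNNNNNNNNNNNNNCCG was in 24 windows (0.0731%), and the family 2 fingerprint CGGNNNNCCGCGGNNNNNNNNNNNNACG in 10 (0.0304%). The 2 windows below each hold 1 match and repeat parts of the pattern around it. Capitals again mark CpG sites. The first is chr11:41710094-41710343 on the plus strand, with 3 CCGG sites for MspI, and the second is chr7:10471317-10471566 on the minus strand, with 4.
A230004M16Rik, family 1: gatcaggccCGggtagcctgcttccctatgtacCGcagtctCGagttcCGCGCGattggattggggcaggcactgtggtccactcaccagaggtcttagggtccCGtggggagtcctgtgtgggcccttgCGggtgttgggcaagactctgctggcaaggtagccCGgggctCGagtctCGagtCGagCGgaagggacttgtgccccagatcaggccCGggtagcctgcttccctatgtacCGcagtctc
Gm30645, family 2: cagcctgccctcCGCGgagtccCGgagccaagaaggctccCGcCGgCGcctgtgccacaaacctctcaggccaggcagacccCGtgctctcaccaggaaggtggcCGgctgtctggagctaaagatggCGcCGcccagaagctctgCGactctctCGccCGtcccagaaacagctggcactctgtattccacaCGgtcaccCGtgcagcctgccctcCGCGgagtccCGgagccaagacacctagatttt
These windows show the letters of a unit only. Whether they hold members was not examined, because GRCm38.p6 and mm9 coordinates were not converted.

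In the stages that the choice did not use, the members stayed methylated and rose late. Their mean level was 73.8% ± 5.81 (SD, n = 3 libraries) in Type3a, 74.1% ± 0.81 (n = 3) in Type3b, 77.5% ± 5.07 (n = 5) in Type4, 74.3% ± 4.11 (n = 5) in Type5a, 79.0% ± 0.86 (n = 3) in Type5b and 86.0% ± 1.32 (n = 3) in Type6. The chosen stages were at 73.1% ± 2.9 in Type1, 70.7% ± 1.30 in Type2 and 82.2% ± 0.58 in Type7 (n = 3 each). By library, the 6 of the primary stages lay between 69.8% and 80.4%, those of Type5b at 79.7%, 78.1% and 79.3%, and those of Type6 at 84.9%, 87.5% and 85.6%. Every Type6 library was above every library of the primary stages. The mean over all 39619 tiles was far lower throughout, at 18.9% in Type3a, 28.5% in Type5b and 36.5% in Type6.

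**Figure D1:**
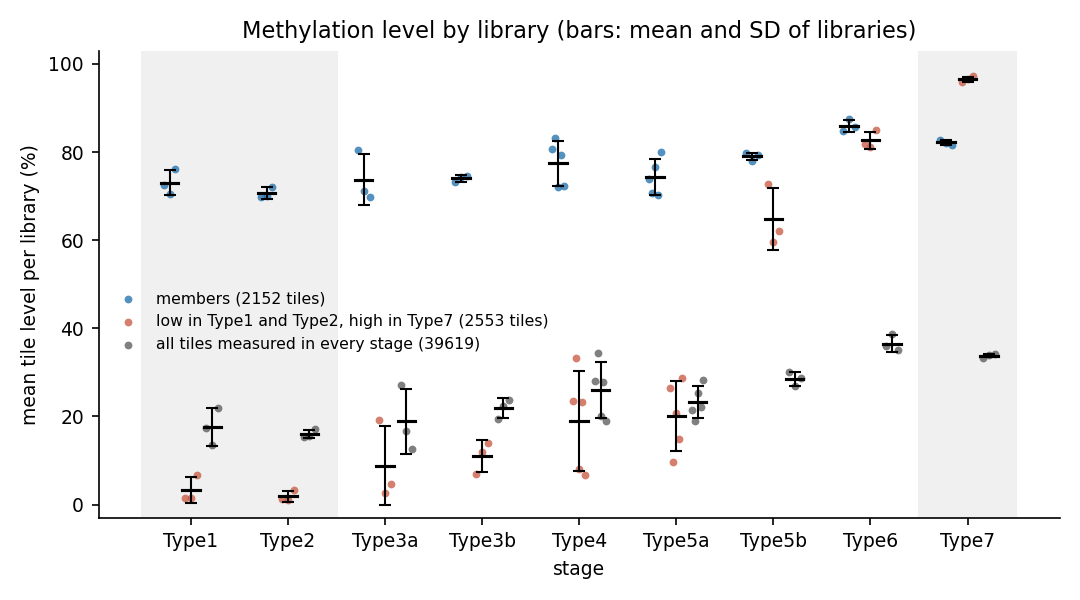
Mean tile level in each library (points, percent) by stage, for the members, for tiles that gained methylation (low in both primordial stages, high in Type7), and for all tiles measured in every stage. Black bars give the mean and SD of the libraries and grey bands the stages used to choose the first 2 sets. The members lie between 69.8% and 87.5% in every library of the middle stages, where the tiles that gained methylation climb from below 20% to above 80%.

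Persistence held tile by tile for most members. In all 6 middle stages, 1771 members (82.3%) stayed at 60% or more, and 24 fell below 40% in any of them. None (0 of 2152) had a middle-stage level below 20%. In each single library that measured it, all 9 stages included, a smaller set of 647 members (30.1%) was at 60% or more. Among the 6 middle stages, Type3b had the fewest members at 60% or more, 1984, and Type6 the most, 2120. Type6 was the highest of the 6 middle stages for 1554 members (72.2%), against 49.6% of all tiles.

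From Type3b to Type6, more of the sites within members came to lie above 80%. In Type3b, 55.7% ± 1.59 of member sites with at least 20 reads had a level between 20% and 80%, and 42.3% ± 2.00 were above 80% (SD, n = 3). In Type5b, 40% ± 3.89 were between these bounds and 57.4% ± 3.72 above (n = 3). In Type6, 20.3% ± 3.78 were between and 78.5% ± 3.99 above (n = 3). Type7, a stage used in the choice, had 32.1% ± 3.08 between and 66.4% ± 2.85 above (n = 3). Sites below 20% were rare in every middle stage, at 3.48% or less on average. Where both strands of a site had at least 10 reads, the mean levels of the strands were compared. The plus strand exceeded the minus strand by a median of 0.31 percentage points over the 31 libraries, with a range from -1.89 to 3.07. Differences of opposite sign cancel in these means. At single sites the mean absolute gap between strands ran from 12.47 points in Type6 replicate 2 to 23.93 in Type5a replicate 6. The cause of this gap was not tested.

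Levels ran on across the threshold without a step. The 395 members whose lower primordial level was from 60% to 62% averaged 82.7% in Type6, and the 426 tiles just outside, from 58% to 60%, averaged 82.0%. Only 7 tiles reached 60% in both primordial stages and then lay below 40% in Type7.

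Depth bears on these values. The libraries held from 7949652 to 60361665 reads over listed CpG sites, and the median member had from 87 to 735 reads per library. Members were measured least often in Type3a replicate 4 (1048 of 2152) and Type1 replicate 2 (1339). All 31 libraries measured 695 members. A measure of X methylation, the mean level of CpG-dense X tiles minus that of CpG-dense autosomal tiles, was above 0 in 9 libraries. Within Type4, the 3 such libraries had member levels of 79.3% to 83.1% and the other 2 had 72.0% and 72.3%. Within Type5a, the 2 such libraries were at 76.7% and 79.96% and the other 3 between 70.2% and 74.0%. In Type3a the 1 such library was at 80.4%, the top of the range of the primary stages, and the other 2 at 69.8% and 71.1%, and in Type1 1 was at 76.1% and the others at 70.4% and 72.6%. In Type6 the 2 such libraries, at 84.9% and 87.5%, lay on either side of the other, at 85.6%. The part of this measure in the spread within stages was not tested. Without these 9 libraries the members' mean was 70.4% in Type3a, 72.1% in Type4 and 85.6% in Type6, so that Type4 then lay below Type3b (74.1%) and not above it.

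Members differed from other tiles in how often their sequence recurs. A fingerprint found at least 50 times was present in 1982 members (92.1%), in 40.4% of all tiles, and in 4.58% of the 2553 tiles that gained methylation, defined by levels below 10% in both primordial stages and above 80% in Type7. Read the other way, members made up 0.208% of the tiles whose most frequent fingerprint was found 1 or 2 times (28 of 13458). They made up 1.15% of those found 3 to 49 times (89 of 7726), 6.13% of those found 50 times to under 500 times (346 of 5644) and 15.8% of those found 500 times or more (1636 of 10377). A further 53 members were in tiles with no run of 4 sites. Median reads per site, relative to the library median, were 1.61 in members and 1.08 in all tiles. Reads from near-identical copies may be placed on the wrong copy, and how reads with several matches were treated is not given in the sources here, so values of single copies are uncertain.

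Family 1 was the largest, with 1215 members among its 5740 tiles (21.2%). Family 2 had 451 of 2309 (19.5%). Families 3 and 4 were small and dense in members, with 118 of 178 (66.3%) and 81 of 146 (55.5%). Family 5, larger than family 2, had 71 of 2905 (2.44%). Averaged over all of its tiles, members or not, family 5 was at 30.03% ± 4.13 in Type3b and 44.1% ± 6.02 in Type6, and family 3 at 70.04% ± 1.65 and 81.7% ± 0.96 (SD, n = 3 each). Families 1 and 5, which both repeat in tandem with units of similar length, held the most and the fewest members of the 5. Of the tiles that gained methylation, the 5 families held 9 (0.353%).

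**Figure D2:**
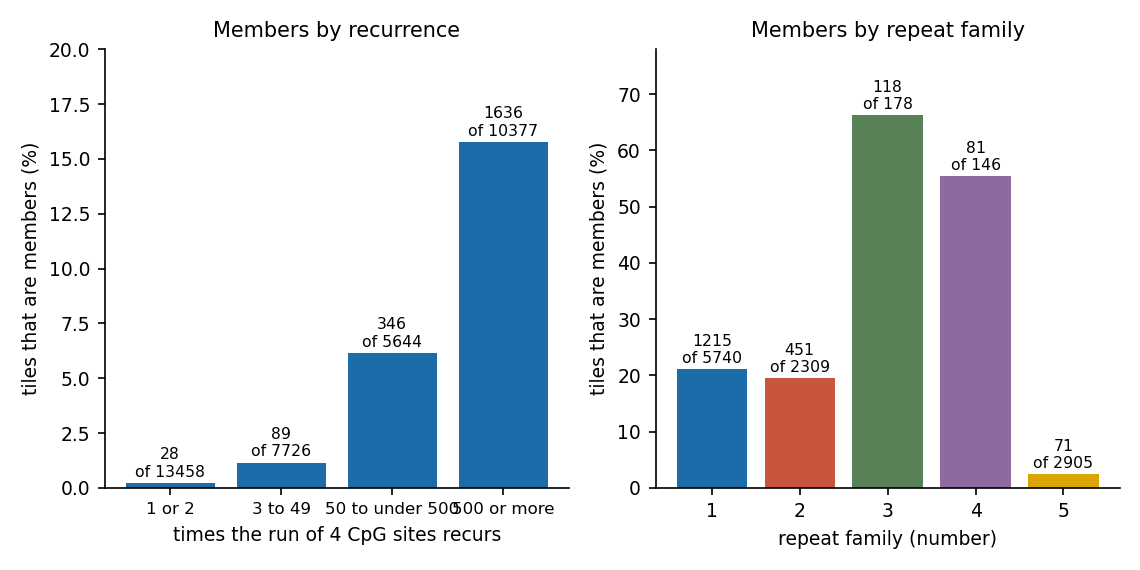
Share of tiles that are members (bars from 0, percent), by how often the tile's fingerprint of 4 CpG sites was found (left) and by repeat family (right), with the number of members and of tiles above each bar. The share rises from 0.208% to 15.8% with recurrence and is highest in families 3 and 4.

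Along the repeated pattern, methylation differed from site to site. Site positions are counted in base pairs from the first CpG of the printed pattern, which is position 1. In family 1, over all copies of the fingerprint and the 22 libraries of the middle stages, position 40 averaged 85.1% ± 3.60 and position 96 averaged 45.6% ± 12.2 (SD over libraries). Position 40 is the first CpG of the CGCGCG run in the pattern and position 96 the next CpG after it. The first was higher in 22 of 22 libraries, by 23.5 to 53.5 percentage points. Inside the CGCGCG run itself, positions 40, 42 and 44 were at 83.0%, 73.7% and 70.3% in Type3b. Family 2 ran from 72.7% at position 11 to 49.6% at position 58, family 3 from 85.2% at position 37 to 30.7% at position 1, family 4 from 86.1% at position 23 to 58.02% at position 46, and family 5 from 47.0% at position 118 to 28.7% at position 26. In each of these families the higher position was the higher one in 22 of 22 libraries. The positions were picked for being the highest and lowest, so these counts describe the profile and are no test. Positions of similar level changed order between stages. Of the family 1 tiles that hold position 1 of a copy, 56.3% were members, and of those that hold position 96 or 157, 16.8% and 9.31%. These shares did not follow the level of the position itself. In Type3b, position 157 was at 72.9%, position 1 at 65.2% and position 96 at 41.3%.

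**Figure D3:**
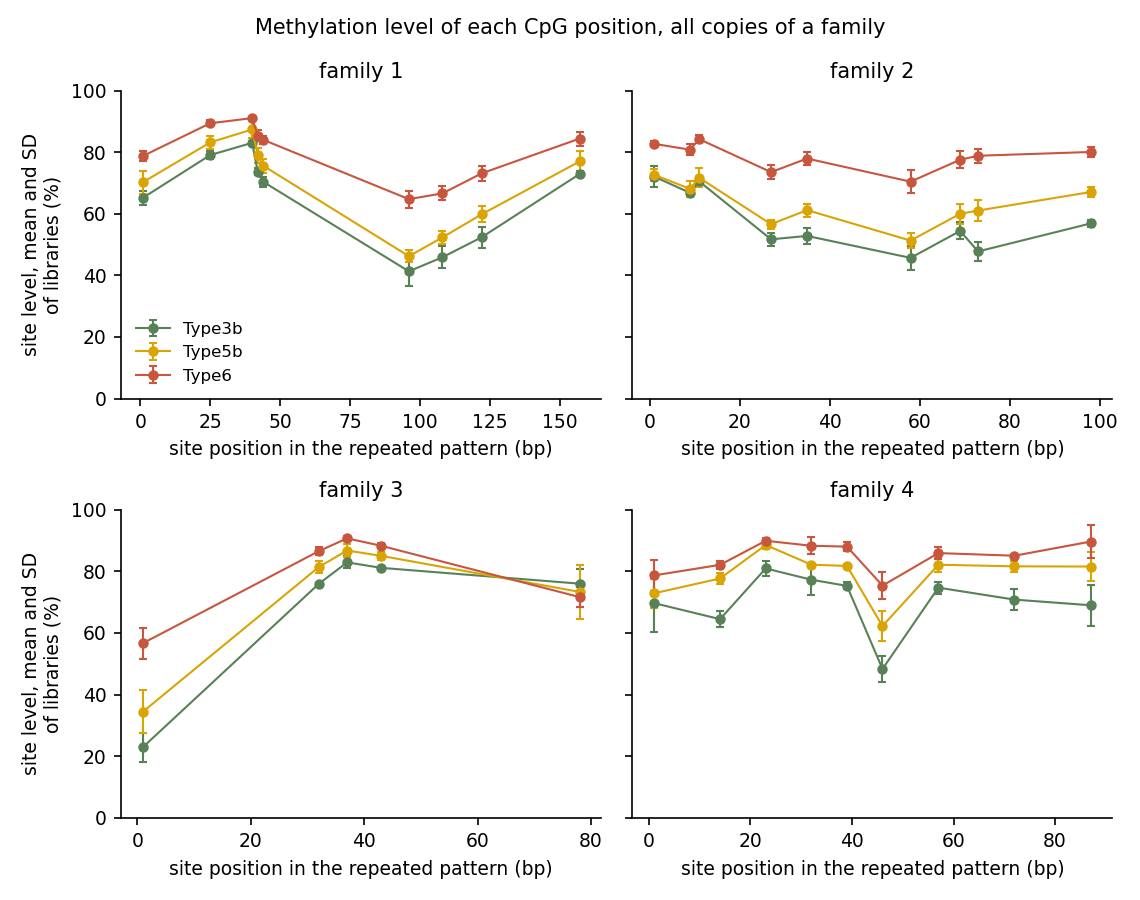
Level of each CpG site (y axis, percent) by its position in the repeated pattern (x axis, base pairs) for all copies of families 1 to 4, in Type3b, Type5b and Type6. Points give the mean and bars the SD of 3 libraries. Family 1 has its low point at position 96, where Type6 lies above Type3b, and family 3 its low point at position 1.

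Members were spread over all chromosomes that were measured. Setting aside the Y, with 1 of its 7 tiles a member, the X had the highest share. On the X, 248 of 1955 tiles (12.7%) were members, against 2.77% on chromosome 11, the lowest, and 8.37% on chromosome 16, the highest of the autosomes. Of the X members, 214 (86.3%) belonged to families 1 and 2. Within family 1, 29.6% of X tiles and 20.4% of autosomal tiles were members. Within family 2 the shares were 28.8% and 18.5%. X members were at 79.2% to 80.7% in the Type5b libraries and 87.4% to 89.0% in those of Type6. The median number of listed CpG sites in the surrounding 1000 bp was 27 for members and 25 for all tiles.

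Methylation around members fell with distance. Tiles that were no members but lay 100 to 500 bp from one averaged 53.5% ± 2.26 in Type3b and 72.7% ± 2.57 in Type6 (n = 2500 tiles, SD over 3 libraries). At 2 to 10 kb the averages were 37.0% ± 4.99 and 53.9% ± 4.65 (196 tiles), and beyond 100 kb 14.9% ± 2.01 and 29.4% ± 1.73 (32086 tiles). Tiles with a fingerprint found 1 or 2 times among the sites read averaged 26.8% ± 7.95 in Type3b at 2 to 10 kb from a member (25 tiles). At 10 to 100 kb they averaged 9.37% ± 2.38 (603 tiles). Beyond 100 kb, 12787 of the 32086 tiles were of this kind and averaged 6.98% ± 1.77. Too few of them lay closer than 2 kb to be averaged, so the kind of tile changed along with the distance. Another member lay within 500 bp of 1034 members (48.0%). By the same measure, 71.1% of all 39619 tiles had another such tile within 500 bp. Of the 2553 tiles that gained methylation, 37.0% had another of their kind that near.

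The longest row of neighbouring members, with gaps of at most 500 bp, held 15 tiles in chr9:79748201-79751800 (mm9), all of family 1. Their stage levels ran from 57.3% to 87.7% in Type3b, with a median of 71.4%. In Type5b they ran from 61.3% to 88.5% (median 85.0%) and in Type6 from 75.1% to 88.6% (median 84.4%). The range over these 15 tiles was thus wider in Type3b than in Type6. In Type7, a stage used in the choice, it was from 64.4% to 97.1%. Libraries also differed within a tile, with an SD of 26.7 points in Type3b at chr9:79751601-79751700. Whether the copies themselves differed more in Type3b was not tested.

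Differences between stages were tested for every tile measured in at least 2 libraries of both, by fitting a quasi-binomial model to methylated and unmethylated reads of all 9 stages, with an F test, moderated dispersion and Benjamini-Hochberg adjustment over all tiles tested. A tile was called where the adjusted p was under 0.05 and the difference at least 20 percentage points. Between neighbouring stages from Type3a to Type5a no member was called. Type3b against Type3a called 0 of 2152 members in either direction, with 0% of all 51558 tiles called. An unadjusted p under 0.05 was found for 112 members (5.20%), beside 3.61% of all tiles tested. Type4 against Type3b called 0 members, with 0.00315% of 63467 tiles called higher and 0.00158% lower. Here 240 members (11.2%) had an unadjusted p under 0.05, beside 7.57% of all tiles tested. Type5a against Type4 called 0 members, with 0% of 84422 tiles called, and 165 members (7.67%) had an unadjusted p under 0.05, beside 7.11% of all tiles tested. By limma on the log ratio of methylated to unmethylated reads per tile, an alternative, these 3 contrasts also called 0 members.

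A small number of members rose at the later steps. From Type5a to Type5b, 19 members rose and 3 fell, which is 0.883% and 0.139% of the members. Among all tiles tested, 3.77% rose and 0.0963% fell. From Type5b to Type6, 21 members rose (0.976%) and 0 fell, against 1.35% and 0.0621% of all tiles. From Type3b to Type5b, 33 rose (1.53%) and 2 fell, against 5.82% and 0.072%. Leaving out Type5b replicate 1 lowered these counts of calls from 22 to 1, from 21 to 10 and from 35 to 9. The first count also fell without Type5a replicate 6 (11), Type1 replicate 3 (12) or Type1 replicate 1 (14), the second was 13 without Type6 replicate 2 and 33 without Type4 replicate 6, and the third fell without Type3b replicate 1 (11), Type3a replicate 2 (21), Type3a replicate 1 or Type1 replicate 3 (22 each) or Type5b replicate 3 (23). With a fit on the 2 stages alone, 5 members were called between Type5a and Type5b and 1 between Type5b and Type6, and by limma 11 and 7. With the replicate number as a block the first count was 5 and the second 32, and with at least 5 sites per tile they were 3 and 13. At these 3 steps the members' share of rises of 20 points or more was below the share among all tiles. In Type5b, 55.3% of the members were at 80% or less and had room for such a rise. Without a minimum size, 2.04% of the members and 1.56% of all tiles were higher in Type6 than in Type5b.

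The rise from the primary stages to Type6 was the broadest change. Against Type3b, 240 members rose (11.2%) and 1 fell in Type6, beside 16.5% and 0.0946% of all 59175 tiles tested. Against Type3a, 182 rose (8.46%) and 2 fell, beside 16.6% and 0.0459% of 56638 tiles. These 2 contrasts share the Type6 libraries. A rise of 20 points was open only to members at 80% or less, which in Type3b were 72.4%. Without a minimum size, at an adjusted p under 0.05, 799 members (37.1%) were higher in Type6 than in Type3b and 1 was lower, beside 19.7% and 0.422% of all tiles. For Type3a the counts were 696 (32.3%) and 2, beside 21.4% and 0.456%. The median member was 11.6 percentage points higher in Type6 than in Type3b, and the median tile of all tested 4.75. By value alone, 1974 members (91.7%) were higher, against 69.9% of all tiles. The members' share was thus above that of all tiles without a minimum size and below it with one, and these shares were not tested against each other, since tiles of one family share their sequence. Against Type3a the 184 calls fell to 50 without Type3a replicate 2 and to 113 without Type1 replicate 3. Against Type3b the 241 calls fell to 135 without Type1 replicate 3, 140 without Type3a replicate 2, 144 without Type3b replicate 1 and 146 without Type3a replicate 1. Without the 9 libraries of high X measure, which leaves 1 Type6 library, assumed to vary like the other stages, 175 members were called against Type3b.

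**Figure D4:**
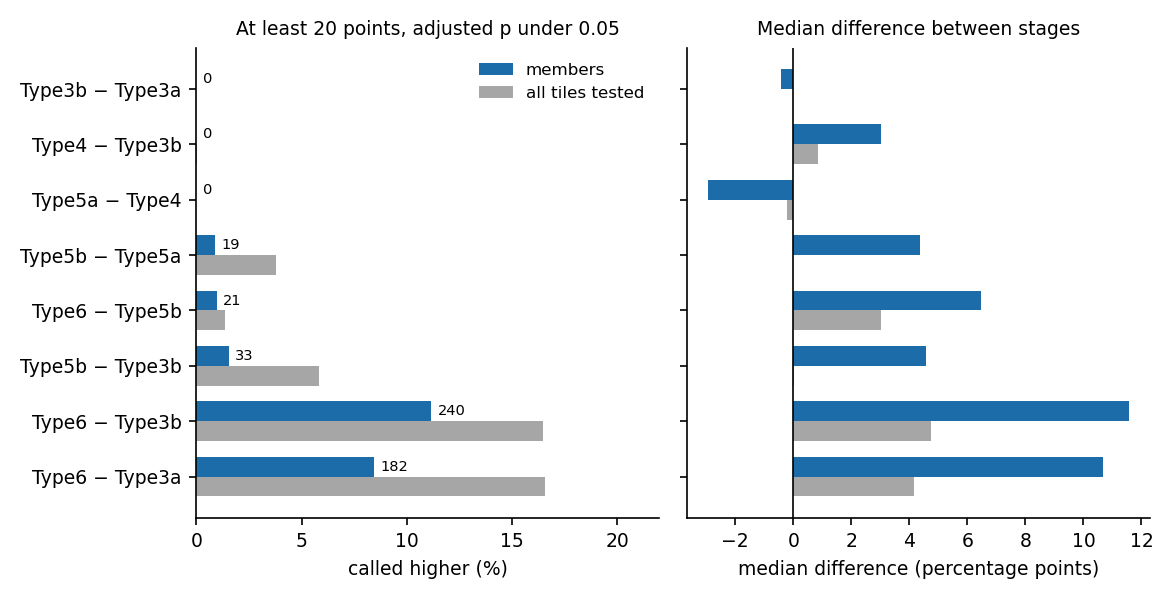
Members and all tiles tested in the 8 contrasts between stages that the choice did not use. Left, share called higher by at least 20 points (bars from 0, percent, with the number of members). Right, median difference (percentage points). Members have the larger median and the smaller share of large rises in both contrasts of Type6 with a primary stage.

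Among the families, family 2 moved most from Type5b to Type6. The median difference at that step was 10.6 points in family 2, 7.12 in family 5, 5.53 in family 1, 5.08 in family 3 and 4.47 in family 4. From the mean of the 6 primary libraries to that of Type6, family 4 rose by 16.3 points and family 2 by 15.4. Its members were at 70.7% ± 0.66 in Type3b, 76.3% ± 0.16 in Type5b and 86.5% ± 1.16 in Type6 (SD, n = 3 each). Family 1 went from 75.9% ± 0.88 through 80.4% ± 1.68 to 86.5% ± 1.33. The median difference between Type6 and Type3b was 16.2 points in family 2, 14.6 in family 4, 10.4 in family 1, 9.54 in family 3 and 8.46 in family 5. Of the 451 members of family 2, 101 rose and 1 fell, and of the 1215 of family 1, 82 rose and 0 fell. In families 3, 4 and 5, 4 of 118, 10 of 81 and 12 of 71 rose. Among all tiles tested in this contrast, 16.5% rose and 0.0946% fell. The 170 members that belonged to no repeated family had a median difference of 14.9 points, and 31 rose. The difference between families was not tested.

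**Figure D5:**
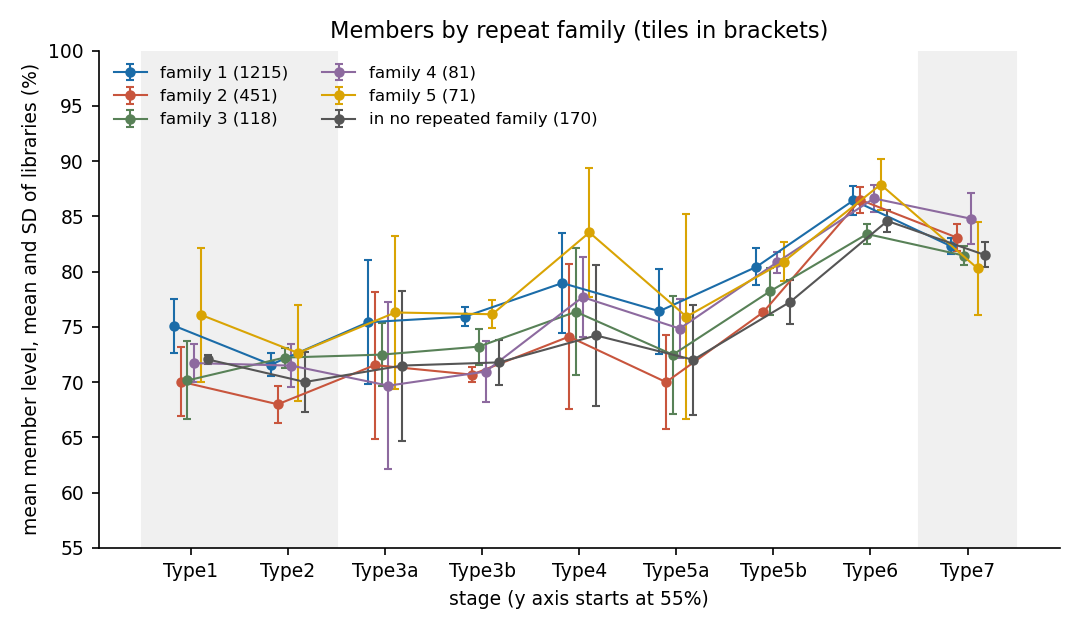
Mean level of the members of each family (y axis from 55%, percent) by stage, with bars for the SD of the libraries (3, or 5 in Type4 and Type5a). Grey bands mark the stages used to choose the members. Family 2 climbs from 76.3% in Type5b to 86.5% in Type6, where families 1 and 2 meet.

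Contrasts with a stage used in the choice are listed as a description. Members called numbered 0 for Type2 against Type1 (0% of all tiles higher, 0.00575% lower, and 0 members called by limma). In the quasi-binomial model, 211 members (9.80%) had an unadjusted p under 0.05 there, beside 6.27% of all tiles tested. For Type3a against Type2, 0 members were called (0.00168% of all tiles higher, 0% lower, and 0 members by limma). In the same model, 209 members (9.71%) had an unadjusted p under 0.05, beside 5.61% of all tiles tested. Type7 against Type6 had 0 higher and 5 lower (0.387% and 0.126% of all tiles). Type7 against Type1 had 131 higher and 7 lower (16.8% and 0.13%).

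Single tiles show the range within the set. The most stable member, chosen for the highest minimum over the libraries of Type3a to Type6, was a copy of family 1 on chromosome 13.
chr13:25634401-25634500: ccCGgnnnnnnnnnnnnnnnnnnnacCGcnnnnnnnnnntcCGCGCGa
It had 96.9%, 93.5% and 96.0% in Type3a, 94.7%, 93.2% and 93.8% in Type3b, and 97.3%, 97.3% and 96.9% in Type6. In Type4 its 5 libraries lay between 91.9% and 96.9%, in Type5a between 93.7% and 97.7%, and in Type5b at 96.1%, 97.0% and 93.5%. No library of any stage was below 91.9%. The 5 most stable members were all of family 1, and their stage levels stayed between 87.5% in Type2 and 97.2% in Type6.

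Several of the named rises were in copies of family 2. Printed here because it rose from Type5b to Type6, a copy on chromosome 10 is shown from the strand opposite to the family 2 pattern. Most of its 7 CpG sites, but not all, fall at sites of that pattern.
chr10:6724901-6725000: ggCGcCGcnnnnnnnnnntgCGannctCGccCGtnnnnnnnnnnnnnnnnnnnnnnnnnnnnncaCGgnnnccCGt
It was at 58.9%, 56.7% and 32.7% in Type5b and at 98.2%, 99.2% and 95.5% in Type6. The libraries of the 2 stages did not overlap, and it rose by 48.2 points (quasi-binomial model, adjusted p = 1.85e-05). It had been at 64.9%, 59.0% and 62.8% in Type3b and between 47.8% and 91.2% in Type5a. Without the other 7 stages in the model it was no longer called.

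A copy on chromosome 6 was lower in Type3b than in Type3a and in Type6. The stretch shown holds 3 CpG sites, fewer than the 5 counted in the tile.
chr6:18013201-18013300: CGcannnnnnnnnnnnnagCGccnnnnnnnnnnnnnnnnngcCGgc
It was at 91.2%, 82.9% and 82.8% in Type3a, at 59.4%, 33.3% and 48.4% in Type3b and at 99.5%, 100% and 99% in Type6. The 3 stages did not overlap with each other, but the fall from Type3a to Type3b was not called. The tile was at 91.9%, 50% and 81.6% in the Type4 libraries that measured it, and at 62.8%, 86.4% and 86.6% in those of Type5a. From Type3b to Type6 it rose by 52.4 points (quasi-binomial model, adjusted p = 3.15e-05). In Type5b it was measured in 2 libraries, at 100% and 94.2%, 50.0 points above Type3b (adjusted p = 0.00256 in the same model).

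Another copy of family 2, chr5:17804201-17804300, was lower in Type3a than later, at 60.6%, 56.0% and 21.7%. Type5b had 99%, 88.9% and 100%, and Type6 had 96.7%, 91.2% and 99.9%. It rose by 49.8 points from Type3a to Type6 without overlap (quasi-binomial model, adjusted p = 6.11e-05).

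Falls were few. The only member called lower in Type6 than in Type3b was again of family 2.
chr12:83890301-83890400: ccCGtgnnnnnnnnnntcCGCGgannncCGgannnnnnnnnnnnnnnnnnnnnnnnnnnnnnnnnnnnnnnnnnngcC
It stood at 95.8% and 89.7% in the 2 Type3a libraries that measured it, at 84.1%, 79.5% and 82.9% in Type3b and at 32.7%, 53.3% and 36.1% in Type6. Type6 lay below both primary stages without overlap, where it fell by 41.5 points from Type3b (quasi-binomial model, adjusted p = 0.0157) and fell by 52.1 points from Type3a (adjusted p = 0.00399). Its reads per library ranged from 27 to 542. By limma it was not called against Type3b, and leaving out Type3b replicate 1, Type6 replicate 1 or Type6 replicate 3 also ended that call. A tile of no repeated family, chr6:124557901-124558000, was at 98.0% and 99.4% in Type3b and at 67.2% and 72.2% in Type5b, and fell by 29.0 points (quasi-binomial model, adjusted p = 0.0044). In Type6 it was back at 89.0%, 88.5% and 93.9%.

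The member with the lowest stage level between the chosen stages, chr9:3887801-3887900, was also the one with the largest rise. Its fingerprint was found 18 times, so it belonged to no family. It was at 41.9%, 0.0% and 39.2% in Type3b, and each of the 3 Type6 libraries read 100%. The rise was 72.9 points (quasi-binomial model, adjusted p = 0.0238), and the call was lost without Type3b replicate 1, Type3b replicate 3 or Type6 replicate 3. Even its primordial libraries were uneven, from 12.1% in Type1 replicate 3 to 96.0% in Type1 replicate 2.

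A pair of neighbouring copies of family 5 had similar levels in most libraries. The members chr3:115619201-115619300 and chr3:115619401-115619500 carry the same pattern, shown for the second. The stretch shown holds 4 CpG sites, fewer than the 8 counted in that tile.
chr3:115619401-115619500: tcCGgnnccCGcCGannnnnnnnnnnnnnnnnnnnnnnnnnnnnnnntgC
In Type5a the first had 68.0%, 39.4%, 83.3%, 9.90% and 79.8%, and the second 63.9%, 33.5%, 85.7%, 0.307% and 82.8%. The library order was thus alike in the 2 tiles, and Type5a replicate 6 was the lowest in both. The largest gap between them was in Type7 replicate 3, with 80% and 47.7%. In Type5b they had 98.1%, 92.7% and 95.6%, and 97.9%, 91.6% and 95.2%. Type5b lay above every Type5a library, by 39.4 points (quasi-binomial model, adjusted p = 0.0164) and by 41.7 points (adjusted p = 0.0171). Neither was called without Type5b replicate 1 or with a fit on the 2 stages, and the second was also not called without Type5a replicate 6, by limma or with the replicate block.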

How the data were processed

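RRBS libraries of mouse oocytes were compared by stage, taken from the sample titles. Per the submitters' processing notes, reads were mapped with BSMAP 2.89 to mm9, which makes the genome build of all tile coordinates here mm9. Trimming, the methylation caller and the treatment of reads with several matches are each not given in the sources used here. The deposited files list, for each CpG site, the methylated and total read counts and their fraction, and no site under 3 reads is listed. The deposited fraction was not used apart from its counts.

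Sites with at least 5 reads were summed in 100-bp tiles with at least 3 sites. A quasi-binomial model of the counts compared the stages, with stage as the only factor, dispersion moderated across tiles and not below 1, and Benjamini-Hochberg adjustment over all tiles tested (scipy 1.17.1 and numpy 2.4.6 in Python 3.11.15). limma 3.58.1 in R 4.3.3 was the alternative test. The model was tested on simulated data with a fixed spread between libraries. The simulated rises started from lower levels than most members have, so how well rises are found at member levels was not tested. Intervals and p-values cover no error from PCR duplicates, since no molecular identifiers are recorded.

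Members and lists were chosen with earlier results of these data known. Single tiles were named by rule. These were the 5 most stable, the 5 with the lowest level and the 5 with the largest rise between the chosen stages, per contrast up to 5 called tiles a direction with the largest difference among those without overlap of libraries, and the longest row of neighbours. The text gives those that show the range. Each library was left out in turn, and other read, site, tile, threshold and model settings were tried. Labels of developmental stage contradict the titles and tissue labels and were not used.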

Additional observations from a re-analysis of the deposited data

Results flagged for a closer look

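Groups of 4 or 5 libraries were taken from named tiles and from mean levels of members, their parts and families 1 to 5. In 3 of 113 such groups a single library stood apart from the rest by Dixon's criterion. Chance gives about 1 such group in 20. At chr7:115289101-115289200, Type4 replicate 4 read 40%, while the nearest of the other 3 measured libraries read 89.8% and the farthest 94.1%. The other 2 groups lay in the row of family 1 copies on chromosome 9. At chr9:79749601-79749700, Type5a replicate 6 read 18.9%, and the other 4 libraries ran from 65.6% to 73.6%. At chr9:79750601-79750700, Type5a replicate 4 read 48.5%, and the others ran from 76.3% to 85.0%.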

How the results depend on the processing

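The direction of no call at a named tile turned under the alternatives tried for it. The order of neighbouring stage means was less stable: Type4 was above Type3b with all libraries and below it (72.1% against 74.1%) without the 9 libraries of X measure above 0, and Type3a, just below Type3b with all libraries, was above it (75.8% against 74.1%) without Type3a replicate 4. Which tiles were members depended on the thresholds: 4413 at 50% in both primordial stages and 835 at 70%, 1130 with at least 5 sites per tile and 695 when all 31 libraries had to measure a tile. The other 8 settings gave 1443 to 2637. Leaving out 1 library in turn gave 1014 to 2214, the low values being 1014 without Type3a replicate 2, 1046 without Type3a replicate 1, 1190 without Type1 replicate 3 and 1314 without Type1 replicate 1, since both remaining libraries of the stage then had to measure a tile.

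At thresholds of 50% the mean level was 66.2% in Type1, 63.5% in Type2, 68.8% and 68.7% in Type3b and Type5a, 74.4% in Type5b, and 82.9% and 78.4% in Type6 and Type7. At 70% it was 80.8%, 79.0% and 80.6% in Type1, Type2 and Type3a, 80.5%, 83.4% and 80.8% in Type3b, Type4 and Type5a, and 84.7%, 89.3% and 86.3% in Type5b, Type6 and Type7. Tiles of 200 bp gave 72.1% in Type3b, 77.7% in Type5b and 81.5% in Type7, and tiles measured in all 31 libraries 68.9% in Type2, 73.0% in Type3b and 78.1% in Type5b. Without the 9 libraries of X measure above 0, Type4 was at 72.1%. Leaving out 1 library in turn gave 71.8% to 74.3% in Type1, 69.6% to 71.4% in Type2, 69.5% to 75.8% in Type3a, 73.2% to 74.5% in Type3b, 76.1% to 78.8% in Type4, and 72.8% to 75.3% in Type5a. The later stages gave 78.3% to 79.6% (Type5b), 85.3% to 86.6% (Type6) and 81.9% to 82.7% (Type7).

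The counts of members called moved more, and the cause was not tested except where fewer tiles or samples entered. For Type5b against Type5a (22 calls) they were 11 at 10 reads per site, 35 with 2 sites per tile and 3 with 5, 57 without the 9 libraries, 11 by limma, 5 with a fit on the 2 stages and 37 at a difference of 10 points. For Type6 against Type5b (21) they were 7 with at most 10 reads per site, 13 with 5 sites, 12 on autosomes, 11 without the 9 libraries, 7 by limma, 1 with the 2 stages and 38 at 10 points. For Type5b against Type3b (35) they were 23 at 10 reads, 14 with 5 sites, 22 by limma and 60 at 10 points. For Type6 against Type3a (184) they were 94 with 5 sites, 121 by limma, 119 with the 2 stages and 586 at 10 points, and for Type6 against Type3b (241) 127 and 707 with 5 sites and at 10 points. Without the 9 libraries, Type4 against Type3b and Type5a against Type4 had 1 call each. For Type7 against Type1 (138) they were 70 with 5 sites and 374 at 10 points, and for Type7 against Type6 (5) 1 with at most 10 reads, 3 with 200-bp tiles, 2 with 5 sites, 1 without the 9 libraries, 0 by limma, 0 with the 2 stages and 9 at 10 points. Leaving out 1 library gave 1 to 33 for Type5b against Type5a, 10 to 33 for Type6 against Type5b, 9 to 44 for Type5b against Type3b, 50 to 266 for Type6 against Type3a, 135 to 267 for Type6 against Type3b, 68 to 147 for Type7 against Type1 and 1 to 7 for Type7 against Type6. The remaining contrasts stayed at 0.

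Replicate numbers did not pair the libraries: over 84 pairs of the same number, deviations from the stage means correlated from -0.275 to 0.315, with a median of 0.00829 and 9 pairs over 0.1. With the replicate number as a block, calls were 5 for Type5b against Type5a, 32 for Type6 against Type5b, 2 for Type3a against Type2, 35 for Type5b against Type3b, 161 for Type6 against Type3a, 247 for Type6 against Type3b, 149 for Type7 against Type1 and 7 for Type7 against Type6.

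Of 32 calls at named tiles, 19 held by limma, 15 with a fit on the 2 stages and 24 with the block. Of their 168 values with 1 library left out, 123 held. Depth limits single tiles, since the median member had 87 reads in the library with the lowest median.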

Other observations

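Only 28 of the members had a fingerprint found 1 or 2 times, out of 13458 such tiles (0.208%). Together with tiles without a run of 4 sites or with a fingerprint found fewer than 50 times, 170 members belonged to no repeated family. Their mean level lay between 67.0% and 79.3% in the 6 libraries of the primary stages, between 74.99% and 78.7% in Type5b and between 83.8% and 85.8% in Type6, so all 3 Type6 libraries were above all primary libraries, as they were in families 1 to 5.

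The spread between libraries of one stage was smaller in members than in the tiles that gained methylation at the stages where the latter were changing. The median SD between libraries was 8.72 points in members and 18.1 in gaining tiles in Type4, 5.88 and 15.7 in Type5b, and 3.71 and 7.98 in Type6. In Type3b it was 5.92 and 6.38.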
